A study of Mus musculus with 8 samples.

Results

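FRCs cultured with tumor-conditioned medium (TCM) were compared directly with FRCs cultured with lactic acid (LA), without either control in the contrast. The comparison held 4 of the 8 libraries of the study, 2 with TCM and 2 with LA, and 12137 of the 55367 genes in the count table, chosen as those with at least 10 counts in at least 3 of the 8 libraries. The cells were a single FRC line from C57BL/6 mice that carry p53 ER/ER, made from their lymph nodes and described by the study as positive for Pdpn and VCAM-1 and negative for CD45 and CD31. TCM was RPMI that B16.F10 mouse melanoma cells had conditioned without supplements and that was then filtered. LA was fresh, unconditioned RPMI with 15 mmol/L LA. The controls were RPMI conditioned by the FRC line itself (CCM) and fresh RPMI with the same amount of water (vehicle), each with 2 libraries. Every condition lasted 4 days with 2% FBS and penicillin-streptomycin. TCM and LA therefore differed both in the treatment and in whether the medium had been conditioned by cells, and in the direct contrast these cannot be told apart. The libraries were poly(A) RNA made with a directional kit.

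FRCs are fibroblasts that build the reticular network of lymph nodes, wrap its collagen fibers and guide lymphocytes with chemokines and survival factors. They carry Pdpn, Pdgfrb and Vcam1, they contract, and they respond to interferons and cytokines. LA is the acid that cells release when pyruvate from glycolysis is reduced by lactate dehydrogenase, and it crosses membranes together with a proton through the monocarboxylate transporters. Medium conditioned by tumor cells holds lactate as well as other metabolites, secreted proteins, vesicles and nucleic acids, and some nutrients have been used up. The direct comparison asks which genes separate the cells that met the whole mixture from the cells that met the single metabolite.

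Total counts were 8232889 and 14107964 for LA, 10131348 and 9764520 for TCM, and 8784655 to 11526867 for the controls. Levels are CPM, the counts scaled to TMM-adjusted library sizes, and a floor of 3 counts equaled 0.212 to 0.355 CPM. Replicates differed beyond counting noise, with a chi-square per degree of freedom of 7.45 between the LA libraries and 20.6 between the TCM libraries. The FRC markers Pdpn, Vcam1 and Pdgfrb were at 124 CPM or more in each LA and TCM library, and Pdgfra was at 51.7 CPM or more. Ptprc, the gene of CD45, had 0 counts in all 8 libraries, and Pecam1, the gene of CD31, had 4 to 9 counts. The lymph node chemokines Ccl19 and Ccl21a, which FRCs produce in vivo, were at 0 counts in all 4 LA and TCM libraries.

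Of the 12137 genes, 1955 were called between TCM and LA (16.1%). Of these, 1012 were higher with TCM (8.34% of the genes tested) and 943 were higher with LA (7.77%). Genes were called where edgeR's quasi-likelihood test gave a Benjamini-Hochberg adjusted P value, over all 12137 genes, under 0.05 and the log2 FC passed 0.39 in either direction, 1 of the fold thresholds that the study used. The log2 FC is TCM minus LA throughout, given ± its SE for the genes that matter most, so positive values are higher with TCM. The median size of a called log2 FC was 0.75, and 623 genes were called beyond 1. These larger differences were uneven in direction, with 226 higher with TCM and 397 higher with LA. The median log2 FC of all tested genes was 0.00 with TMM scaling. Without TMM factors the median fell by 0.11, and 664 genes were called higher with TCM and 1520 higher with LA, so the near-even split rests on the scaling. In all 1955 called genes the TCM libraries lay apart from the LA libraries, but so they did in 53.8% of all tested genes. The study describes the 2 libraries of a condition as biological replicates, and the labels do not say whether they came from separate cultures. The P values measure the spread between these libraries, which may be partly technical. With 2 libraries a condition, the calls rest on the spread that edgeR shares across genes, and 1014 genes were called without LA library 2 and 1261 without LA library 1.

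**Figure D1:**
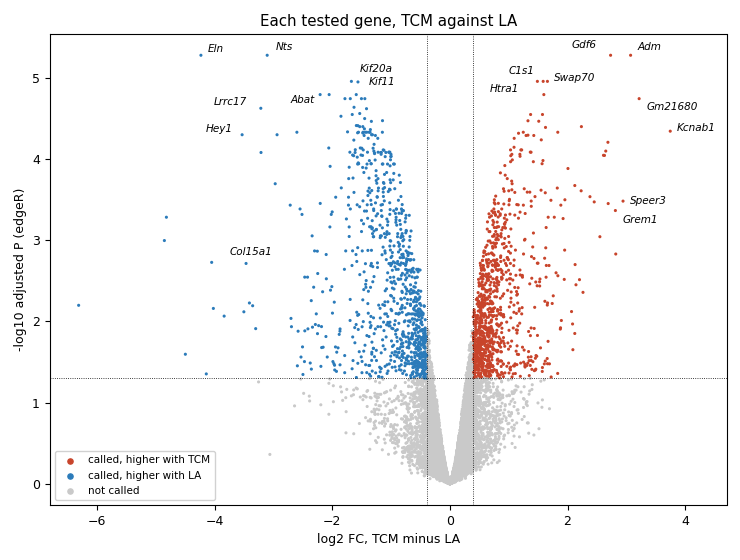
Each point is 1 of the 12137 tested genes, with the log2 FC of TCM minus LA on the horizontal axis and −log10 of the adjusted P value from edgeR on the vertical axis. Dotted lines mark a log2 FC of 0.39 in either direction and an adjusted P value of 0.05; 1012 genes are called higher with TCM and 943 higher with LA, and the genes named on the plot have the smallest adjusted P values or the largest log2 FC.

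The 4 control libraries were used to place each treatment, as a description. Calls and classes were drawn from the same TCM and LA libraries. Larger shares among the calls than among all tested genes were therefore partly built in. For a gene, a treatment was above the controls if both of its libraries exceeded all 4 control libraries, below them if both were under all 4, and inside otherwise. Of the 1012 genes called higher with TCM, 640 (63.2%) had TCM above and LA inside the control range, a pattern of 14.1% of all tested genes. Of the 943 genes called higher with LA, 632 (67.0%) had TCM below and LA inside, against 15.1% of all tested genes. TCM was inside the range with LA below in 82 genes called higher with TCM (8.10%), against 5.58% of all tested genes. With LA above, TCM was inside in 49 genes called higher with LA (5.20%), near the 5.10% of all tested genes. In 154 genes called higher with TCM (15.2%), TCM was above and LA below the controls, against 1.75% of all tested genes. In 110 genes called higher with LA (11.7%), TCM was below and LA above, against 1.26% of all tested genes. Both treatments were above the controls in 87 of the genes called higher with TCM (8.597%), against 4.243% of all tested genes. Both treatments were below the controls in 96 of the genes called higher with LA (10.18%), against 4.746% of all tested genes. These calls were differences of degree.

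**Figure D2:**
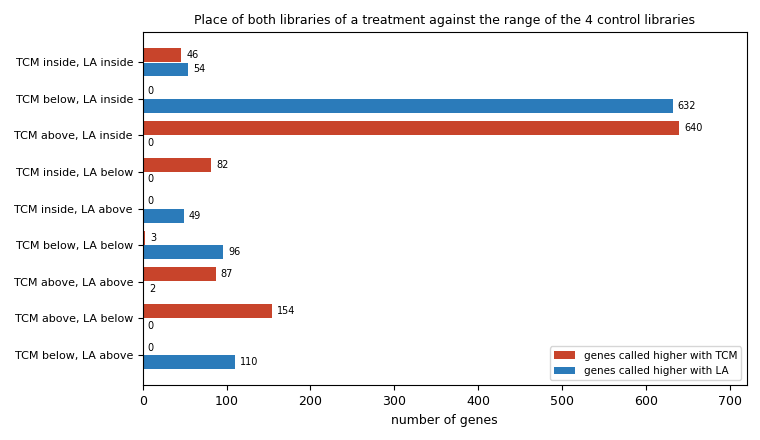
Bars give the number of genes called higher with TCM (red) or higher with LA (blue) in each of 9 classes, by the place of both TCM and both LA libraries against the range of the 4 control libraries. The longest bars are TCM above with LA inside (640 genes) and TCM below with LA inside (632 genes).

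The controls themselves differed less. Between CCM and vehicle, 158 genes were called (1.3%), with 109 higher and 49 lower with CCM, and 1563 had an unadjusted P value under 0.05. This count rested on single libraries, with 0 to 5 calls when any control library was left out and 497 or 494 without TCM library 1 or 2. Across the 12137 genes, which are not independent replicates, the log2 FC of TCM minus LA and that of CCM minus vehicle had a Pearson's r of −0.02 and a Spearman's rho of −0.05. The genes called higher with TCM had a median log2 FC of 0.00 for CCM minus vehicle, and those called higher with LA had 0.11. In a test of whether the effect of TCM over CCM differed from that of LA over vehicle, called the interaction here, 1268 genes were called (10.4%), with 540 positive and 728 negative; the count was 629 to 776 without any one control library, 754 without LA library 2 and 2540 without TCM library 2. The interaction shares the TCM and LA libraries with the direct comparison, so its values are set beside those of single genes and are not counted as a second result. Its median was 0.67 for the genes called higher with TCM and −1.03 for those called higher with LA.

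Among the genes higher with TCM, Adm, Gdf6, C1s1, Htra1 and Swap70 had the smallest adjusted P values. Adm encodes adrenomedullin, a peptide that widens vessels. It had 6.15 and 4.66 CPM with LA and 43.3 and 45.5 CPM with TCM (log2 FC 3.07 ± 0.17, adjusted P = 5.32e-06), with 4.78 to 6.70 CPM in the controls. Both LA libraries lay at the control level and both TCM libraries far above it, and Adm overlaps Gm28863 on the opposite strand. Gdf6, a ligand of the BMP family (chromosome 4 from 9844372 to 9862345, GENCODE M21 on GRCm38), had 6.39 and 7.12 CPM with LA and 46.4 and 44.2 CPM with TCM (log2 FC 2.73 ± 0.13, adjusted P = 5.32e-06). With 12.1 to 13.7 CPM in the controls, TCM was above and LA below each of them. C1s1, a protease of the first complement component (chromosome 6 from 124530345 to 124542359), had 39.3 and 42.7 CPM with LA and 128 and 131 CPM with TCM (log2 FC 1.66 ± 0.11, adjusted P = 1.12e-05), but CCM exceeded vehicle for it too (log2 FC 1.15, adjusted P = 0.0052) and its interaction was not called (log2 FC 0.51, adjusted P = 0.0543). Htra1, a secreted serine protease (chromosome 7 from 130936111 to 130985660), had 105 and 109 CPM with LA and 311 and 289.9 CPM with TCM (log2 FC 1.49, adjusted P = 1.12e-05). Swap70, which binds actin and activates Rac (chromosome 7 from 110221711 to 110283506), had 64.2 and 56.4 CPM with LA and 174 and 187 CPM with TCM (log2 FC 1.58, adjusted P = 1.12e-05). In neither gene did the TCM and LA libraries overlap.

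Among the genes higher with LA, the smallest adjusted P values belonged to Eln, Nts, Kif20a, Kif11 and Abat. Eln encodes tropoelastin, the monomer of elastic fibers, and had 35.5 and 44.9 CPM with LA and 2.21 and 2.07 CPM with TCM (log2 FC −4.23 ± 0.23, adjusted P = 5.32e-06). The controls had 38.8 to 63.6 CPM, so the LA libraries were near them and the TCM libraries fell far below, and Eln overlaps Gm30003 on the opposite strand. Nts, the peptide neurotensin (chromosome 10 from 102481756 to 102490486), had 46.1 and 52.5 CPM with LA and 5.59 and 5.89 CPM with TCM (log2 FC −3.11 ± 0.17, adjusted P = 5.32e-06). In the controls it had 21.2 to 32.2 CPM, which lay between the treatments, so LA was above and TCM below. Kif20a and Kif11 are kinesins of the mitotic spindle and are given with that group below. Abat, the enzyme that breaks down GABA (chromosome 16 from 8513429 to 8621568), had 56.8 and 61.9 CPM with LA and 13.1 and 15.6 CPM with TCM (log2 FC −2.05, adjusted P = 1.62e-05). Its level with LA was inside the control range of 55.3 to 109 CPM, where CCM was lower than vehicle (log2 FC −0.80, adjusted P = 0.0235).

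The largest differences of genes that reached a mean of 5 CPM in the higher group were Kcnab1 (3.74), Gm21680 (3.22), Adm, Speer3 (2.94) and Grem1 (2.81) toward TCM, and Eln, Hey1 (−3.53), Col15a1 (−3.46), Lrrc17 (−3.21) and Nts toward LA, all as log2 FC. Kcnab1, a subunit of potassium channels, had 1.06 and 0.635 CPM with LA and 10.4 and 11.4 CPM with TCM (log2 FC 3.74, adjusted P = 4.58e-05) and overlaps other genes on both strands. Speer3 belongs to a family of similar genes, so its counts are uncertain. Grem1, a secreted antagonist of BMP ligands that marks a population of FRCs, had 2.13 and 4.73 CPM with LA and 23.9 and 27.6 CPM with TCM (log2 FC 2.81, adjusted P = 0.000434), and the lowest TCM library exceeded the highest of the other 6. Hey1, a transcription factor downstream of Notch, had 26.6 and 35.0 CPM with LA and 3.27 and 2.07 CPM with TCM (log2 FC −3.53, adjusted P = 5.06e-05). Col15a1, a basement membrane collagen, had 7.93 and 21.6 CPM with LA and 1.48 and 1.31 CPM with TCM (log2 FC −3.46, adjusted P = 0.00194). The LA libraries of Col15a1 were far apart, and its call was lost without TCM library 1 or 2 and with no filter on low counts.

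**Figure D3:**
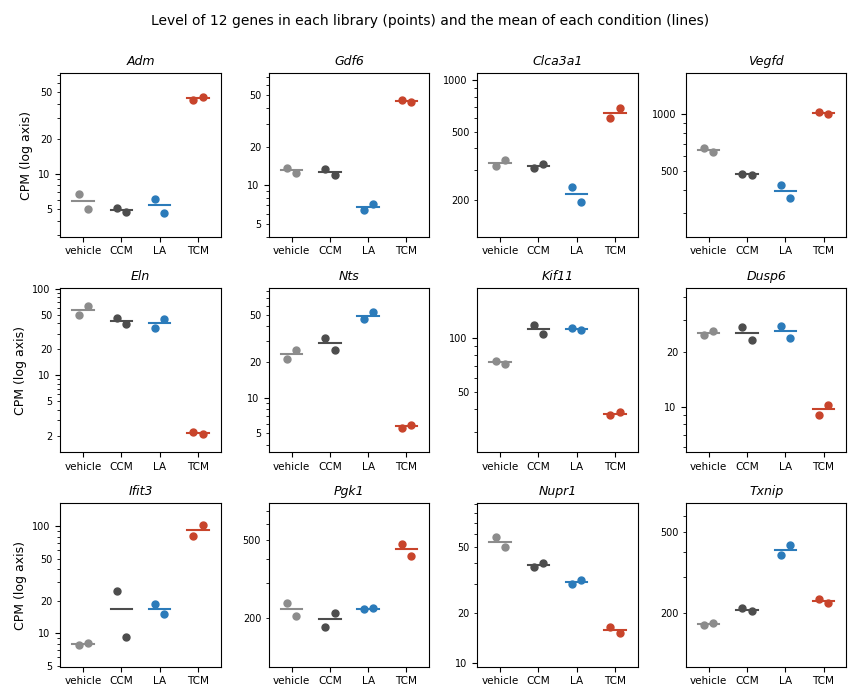
Each panel shows the CPM (log axis) of 1 gene in the 2 vehicle, 2 CCM, 2 LA and 2 TCM libraries as points, with the mean of each condition as a line. Adm, Gdf6, Clca3a1 and Vegfd are highest with TCM, Eln, Kif11 and Dusp6 are lowest with TCM, and Nts and Txnip are highest with LA.

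Several of the genes named here overlap another gene, whose reads the counting could have mixed. On the same strand lie Irf9 with Rnf31, Irgm2 with Igtp, Ifi47 with Olfr56, Ramp2 with Vps25, Podn with Scp2 and Pappa2 with 1600012P17Rik. On the opposite strand lie Htra1 with Fgfr2, Kif20a with Cdc23, B2m with Patl2, Atf5 with Nup62, Igfbp7 with Polr2b, Tgfb3 with Ttll5, Crim1 with Fez2, Thbs3 with Mtx1 and Ctsb with Fdft1. Noncoding genes overlap others, such as Swap70, C1s1, Pgm5, Kif11 and Txnip.

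The genes on opposite sides of the controls included Clca3a1 and Vegfd besides Gdf6 and Htra1. Vegfd, a growth factor of lymphatic vessels, had 424 and 362 CPM with LA and 1028 and 1002 CPM with TCM against 479.8 to 661 CPM in the controls (log2 FC 1.37 ± 0.11, adjusted P = 2.85e-05; interaction log2 FC 1.79, adjusted P = 4.87e-05). Clca3a1, of a family of chloride channel regulators, had 238 and 194 CPM with LA and 600.1 and 686 CPM with TCM against 307 to 343 CPM (log2 FC 1.57, adjusted P = 2.85e-05). In the other direction stood Nts, Pgm5, Ccnb1, Cenpe and Kif18b. Pgm5, a cytoskeletal relative of phosphoglucomutase, had 141 and 183 CPM with LA and 32.1 and 38.3 CPM with TCM against 90.3 to 135 CPM (log2 FC −2.21, adjusted P = 1.62e-05). Ccnb1, Cenpe and Kif18b are genes of mitosis, and for them the 2 controls differed in level.

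Genes were also grouped into 39 lists by function. For each list the tested members called in each direction are counted below, and the shares of all tested genes called, 8.34% higher with TCM and 7.77% higher with LA, are the background to read them against. The list medians ran from −1.44 for mitosis and spindle to 1.36 for complement.

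Genes of cell division were higher with LA. All 30 genes of the mitosis and spindle list were called, with log2 FC from −1.69 for Ccnb1 to −0.95 for Cdk1 and a median of −1.44, and all 30 were called in each of the fits with a library left out. Kif11, the motor that pushes spindle poles apart, had 113 and 111 CPM with LA and 37.1 and 38.6 CPM with TCM (log2 FC −1.56 ± 0.10, adjusted P = 1.13e-05). Kif20a, a kinesin of the midzone that works in cytokinesis, had 156 and 148 CPM with LA and 46.8 and 48.5 CPM with TCM (log2 FC −1.67, adjusted P = 1.12e-05), and Ccnb1, the cyclin that drives entry into mitosis, had 58.3 and 56.2 CPM with LA and 18.1 and 17.2 CPM with TCM (log2 FC −1.69, adjusted P = 1.82e-05). No TCM library of these genes came near an LA library. Top2a, the topoisomerase that untangles sister chromatids, had 345 and 316 CPM with LA and 120.0 and 142 CPM with TCM, and Mki67, the classic marker of cycling cells, had 210.0 and 213 CPM with LA and 63.7 and 94.0 CPM with TCM. In bulk RNA, fewer dividing cells and less of these transcripts per dividing cell cannot be told apart. The study reported that neither LA nor TCM affected proliferation of FRCs by Ki67 staining, a measure of protein. Why the RNA differed between the treatments was not tested.

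The controls bear on this difference. The summed level of the 30 genes was 2648 and 2445 CPM with LA and 928 and 986 with TCM, against 1734 and 1558 with vehicle and 2505 and 2418 with CCM. TCM was thus under all other libraries, LA was near CCM, and vehicle lay between. CCM exceeded vehicle by a median log2 FC of 0.59, so that the interaction was wider than the direct difference, with a median of −2.01 and all 30 genes called negative. For Kif11 the direct log2 FC was −1.56 and the interaction was log2 FC −2.18, adjusted P = 3.91e-05.

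The 150 bases before the start of Kif11 and Top2a are shown because promoters of this list often hold the letters TTTGAA, the core of the cell cycle genes homology region (CHR), an element of genes that peak in mitosis. The sequences are from RefSeq on GRCm38.p6, written 5′ to 3′ toward the gene, with TTTGAA or its complement TTCAAA in capitals.
Kif11 (chr19:37376232-37376381, plus strand): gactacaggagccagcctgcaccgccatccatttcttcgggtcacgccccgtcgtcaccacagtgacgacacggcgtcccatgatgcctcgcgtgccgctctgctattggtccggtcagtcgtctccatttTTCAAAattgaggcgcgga
Top2a (chr11:99024190-99024339, minus strand): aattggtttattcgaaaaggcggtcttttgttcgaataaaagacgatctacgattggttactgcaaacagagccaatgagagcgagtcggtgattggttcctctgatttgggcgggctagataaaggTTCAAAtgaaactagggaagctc
The capitals begin 19 bases before the start of Kif11 and 23 bases before that of Top2a. In windows from 250 bases before to 50 after the start, read on both strands, 18 of the 24 list members with a window held these letters (75.0%), against 20.2% of all 27025 genes of the promoter table, 14.3% of the tested genes with a window and 25.2% of those called higher with LA. Windows cover 77.6% of the tested genes, so shares over tested genes are given beside those of the whole table here and below, as descriptions. A match is a description of the letters and not evidence of a bound factor. Here and below, members whose 150 bases lacked the letters were passed over. The printed promoters were thus picked for holding a match and need not be typical of their list.

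Of the 30 DNA replication genes, 22 were called higher with LA and none higher with TCM, with a median log2 FC of −0.60. Without LA library 1 the count was 14. Mcm5, a subunit of the replicative helicase, had 112 and 103 CPM with LA and 57.2 and 60.6 CPM with TCM (log2 FC −0.86 ± 0.10, adjusted P = 0.000159). Rrm2, the regulatory subunit of ribonucleotide reductase, had 103 and 92.1 CPM with LA and 49.6 and 47.4 CPM with TCM (log2 FC −1.004, adjusted P = 9.42e-05), and Mcm7, another helicase subunit, had 78.7 and 70.9 CPM with LA and 41.4 and 43.7 CPM with TCM (log2 FC −0.81, adjusted P = 0.000366); Mcm7 overlaps a microRNA cluster and other genes. Rrm1, the catalytic subunit, was the uncalled member of highest mean CPM, at 279 and 261 CPM with LA and 264 and 253 CPM with TCM (log2 FC −0.06, adjusted P = 0.701, 95% CI −0.28 to 0.15). For Mcm5 the controls again differed (log2 FC 0.72, adjusted P = 0.0208), and its interaction was log2 FC −1.58, adjusted P = 5.24e-05. The summed level of the list was 1909 and 1709 CPM with LA, 1305 and 1246 with TCM, 1349.8 and 1383 with vehicle and 1977 and 1967 with CCM. Both TCM libraries were under the vehicle libraries in this sum and further under those of CCM, and 25 of the 30 genes had a called negative interaction.

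**Figure D4:**
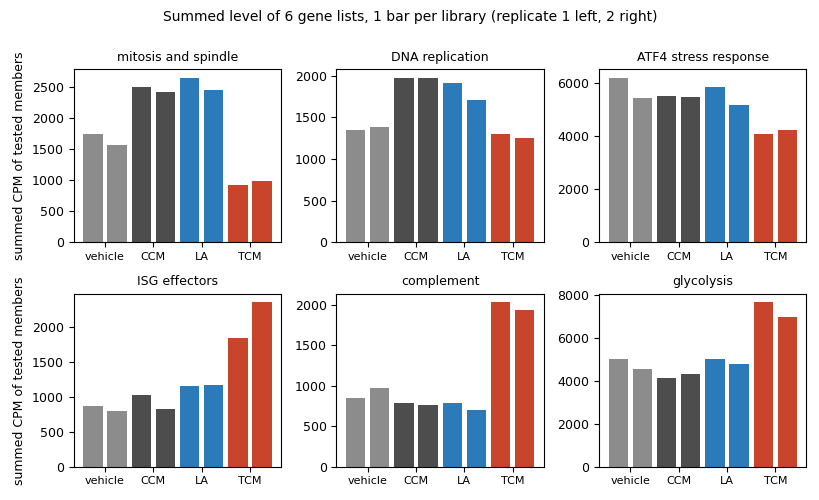
Each bar is the summed CPM of a list in 1 library, with replicate 1 to the left of replicate 2 within each condition. The sums hold all listed members in the count table, although the axis label names tested members, and the axis starts at 0. TCM is lowest for mitosis and spindle (928 and 986 CPM) and the ATF4 list (4084 and 4225 CPM), and highest for ISG effectors (1851 and 2362 CPM), complement (2037 and 1938 CPM) and glycolysis (7667 and 6995 CPM).

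Most calls among p53 targets and inhibitors of the cell cycle were also toward LA. The FRC line came from p53 ER/ER mice and p53 activity was not tested, so these genes are not a readout of p53. Of the 20 tested p53 targets, CDK inhibitors and D-type cyclins, 8 were called higher with LA and 1 with TCM. Cdkn1a, which encodes the CDK inhibitor p21, had 123 and 112 CPM with LA and 71.6 and 64.0 CPM with TCM (log2 FC −0.79 ± 0.10, adjusted P = 0.000434), and 111 to 162 CPM in the controls, highest with vehicle. Trp53inp1, a p53-induced stress protein, had 165 and 174 CPM with LA and 87.3 and 104 CPM with TCM (log2 FC −0.82, adjusted P = 0.000415), and Sesn2, induced by p53 and by ATF4, had 129 and 99.3 CPM with LA and 45.7 and 57.0 CPM with TCM (log2 FC −1.15, adjusted P = 0.000366). TCM was the lowest condition in these 3 genes, and the interaction of Cdkn1a was not called (log2 FC −0.35, adjusted P = 0.155). Without LA library 1 the list had 5 calls, and the call toward TCM was lost without LA library 1 or 2 or TCM library 2. Ccnd2, a cyclin D, was not called (log2 FC −0.03, adjusted P = 0.89, 95% CI −0.26 to 0.20).

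Interferon-stimulated genes were called toward TCM. Of 34 tested effector genes, 20 were higher with TCM and none higher with LA, with a median log2 FC of 0.92, and the log2 FC was positive in all 34. Ifitm3, a membrane protein that blocks virus entry, had 189 and 182 CPM with LA and 348 and 421 CPM with TCM (log2 FC 1.05 ± 0.11, adjusted P = 8.81e-05). Ifit3, which binds foreign RNA together with Ifit1, had 18.7 and 15.2 CPM with LA and 80.9 and 103 CPM with TCM (log2 FC 2.45, adjusted P = 0.00034), and Bst2, the tetherin that holds budding virus, had 27.1 and 33.8 CPM with LA and 85.4 and 141 CPM with TCM (log2 FC 1.88, adjusted P = 0.000372). Isg15, a protein modifier, had 24.8 and 24.8 CPM with LA and 72.4 and 85.5 CPM with TCM (log2 FC 1.67). The TCM libraries of Bst2 were well apart from each other, though both exceeded LA. The Ifit, Oas and Mx genes have close copies, whose reads the counting could have split.

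The controls place both treatments. The summed level of the list was 1154 and 1168 CPM with LA, 1851 and 2362 with TCM, 878 and 804 with vehicle and 1036 and 829 with CCM. Both LA libraries were above all 4 control libraries, and both TCM libraries were above LA. Over the tested members, CCM exceeded vehicle by a median log2 FC of 0.53. The median interaction was 0.52, with 5 genes called; Ifitm3 was among them (log2 FC 0.67, adjusted P = 0.0152), while Ifit3 (log2 FC 1.34, adjusted P = 0.109) and Bst2 (log2 FC 1.22, adjusted P = 0.0721) were not. The 20 calls became 12 without TCM library 2 and 13 without LA library 1 or 2, and Ifit3 was not called with no filter on low counts. Samhd1, a hydrolase of deoxynucleotides, was the uncalled member of highest mean CPM (log2 FC 0.36, adjusted P = 0.0357), its log2 FC being under the threshold of 0.39.

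Fewer regulators were called. Of 24 tested interferon receptors, sensors and transcription factors, 9 were called higher with TCM (5 without LA library 2) and none higher with LA. The transcription factors Stat2, with 38.6 and 49.5 CPM with LA and 91.8 and 122 CPM with TCM (log2 FC 1.27, adjusted P = 0.001), and Irf9, with 29.2 and 35.8 CPM with LA and 55.4 and 68.5 CPM with TCM (log2 FC 0.92, adjusted P = 0.00178), form a complex that drives these genes, and Irf7 (log2 FC 1.53) was also called. Socs3, a feedback inhibitor of cytokine receptors, had 13.4 and 10.7 CPM with LA and 25.5 and 22.3 CPM with TCM (log2 FC 1.01, adjusted P = 0.00107). The receptor subunit Ifnar1 (log2 FC −0.25) and the kinase Jak1 (log2 FC 0.15, adjusted P = 0.357, 95% CI −0.08 to 0.38) were not called.

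Among interferon-inducible GTPases, which attack vacuoles of intracellular microbes, 6 of 9 were called higher with TCM and the other 3 had positive log2 FC without a call. Irgm1 had 43.4 and 49.5 CPM with LA and 78.6 and 93.3 CPM with TCM (log2 FC 0.88 ± 0.12, adjusted P = 0.00075), Ifi47 had 17.2 and 14.8 CPM with LA and 34.7 and 28.6 CPM with TCM (log2 FC 1.00, adjusted P = 0.00235), and Irgm2 had 14.3 and 12.2 CPM with LA and 28.6 and 43.8 CPM with TCM (log2 FC 1.46, adjusted P = 0.00329). The 6 calls became 3 without LA library 2. CCM exceeded vehicle by a median log2 FC of 0.49 in this list, and 2 members had a called interaction. Promoters of Irgm1 and Irgm2 are shown because the letters GAAANNGAA, the core of the interferon-stimulated response element bound by the complex that holds Stat2 and Irf9, were frequent in this list. Capitals mark these letters or their complement.
Irgm1 (chr11:48871421-48871570, minus strand): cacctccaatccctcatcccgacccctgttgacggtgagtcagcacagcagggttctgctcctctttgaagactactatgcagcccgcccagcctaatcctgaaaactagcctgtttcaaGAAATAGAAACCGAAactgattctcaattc
Irgm2 (chr11:58214827-58214976, plus strand): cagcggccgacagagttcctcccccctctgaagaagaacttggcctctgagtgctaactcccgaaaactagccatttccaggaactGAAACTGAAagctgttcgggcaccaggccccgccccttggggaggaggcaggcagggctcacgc
In Irgm1 there are 2 overlapping matches, beginning 30 and 24 bases before the start, and in Irgm2 there is 1, beginning 64 bases before it. Of the 8 GTPase genes with a window, 7 held the letters (87.5%), against 9.76% of all genes of the promoter table, 8.35% of tested genes with a window, 12.4% of those called higher with TCM and 31.2% of the 16 MHC class I genes with a window.

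For MHC class I presentation, 7 of 18 tested genes were called higher with TCM (4 without LA library 2) and none higher with LA. The called genes were mostly parts of the peptide supply. B2m, the light chain of class I molecules, had 442 and 467 CPM with LA and 700.1 and 686 CPM with TCM (log2 FC 0.61 ± 0.09, adjusted P = 0.00123), with 436 to 465 CPM in the controls, so LA was at the control level and TCM above. Tap2, which carries peptides into the endoplasmic reticulum, had 31.6 and 32.1 CPM with LA and 60.6 and 50.6 CPM with TCM (log2 FC 0.80, adjusted P = 0.000853), and Psmb8, a subunit of the immunoproteasome, had 3.43 and 3.53 CPM with LA and 10.2 and 8.30 CPM with TCM (log2 FC 1.41, adjusted P = 0.00122). The heavy chains H2-K1 (log2 FC 0.26) and H2-D1 (0.31) were not called, and they are polymorphic genes with close copies. Tap2 and Psmb8 overlap Gm20496 on the opposite strand.

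Complement genes had the highest list median, 1.36, with 6 of 7 tested genes called higher with TCM. Only these 7 of the 21 listed genes passed the count filter, so the median covers a part of the list. Of the 21, 6 had 0 counts in all LA and TCM libraries. Besides C1s1, the called genes included C1ra, the partner protease of C1s, with 45.8 and 36.5 CPM with LA and 92.3 and 98.1 CPM with TCM (log2 FC 1.22, adjusted P = 7.79e-05), Clu, a chaperone that blocks the membrane attack complex, with 365 and 251 CPM with LA and 863 and 715 CPM with TCM (log2 FC 1.36), C4b, at 1.06 and 1.41 CPM with LA and 7.38 and 8.73 CPM with TCM (log2 FC 2.65), and Cd59a (log2 FC 0.68). C3, the central component, was the only one not called, at 7.33 and 8.96 CPM with LA and 5.69 and 5.13 CPM with TCM (log2 FC −0.61, adjusted P = 0.312, 95% CI −1.45 to 0.24). The interaction was called for 3 members, among them Clu (log2 FC 1.73, adjusted P = 0.000652) and C1ra (log2 FC 0.87, adjusted P = 0.00704).

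Chemokines and cytokines were called in both directions. Of 20 tested, 3 were called higher with TCM and 4 higher with LA (2 without TCM library 1 or 2). Csf1, the growth factor of macrophages, had 962 and 701 CPM with LA and 1582 and 1825 CPM with TCM (log2 FC 1.04 ± 0.15, adjusted P = 0.000731), and Cxcl12, a chemokine of reticular cells, had 9348 and 8768 CPM with LA and 13425 and 13826 CPM with TCM (log2 FC 0.59). Il33, an alarmin of fibroblasts, had 21.5 and 26.5 CPM with LA and 7.17 and 9.17 CPM with TCM (log2 FC −1.57 ± 0.17, adjusted P = 0.000116), but the controls were higher than both treatments at 48.2 to 72.0 CPM, so the call is a difference of degree. Ackr3, a scavenger receptor of Cxcl12, had the same order, with 7.33 and 9.31 CPM with LA and 1.90 and 3.27 CPM with TCM (log2 FC −1.71, adjusted P = 0.000905) against 19.0 to 31.7 CPM in the controls. Cxcl1, a chemokine of neutrophils, had 42.0 and 18.2 CPM with LA and 9.27 and 6.66 CPM with TCM (log2 FC −1.87). Cx3cl1 was not called (log2 FC −0.11, adjusted P = 0.531, 95% CI −0.36 to 0.13).

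Glycolysis genes were called toward TCM. Of 18 tested, 8 were higher with TCM and none higher with LA (1 without LA library 1), with a median log2 FC of 0.38. Pfkl, a subunit of phosphofructokinase, the committed step, had 149.6 and 153 CPM with LA and 322 and 297 CPM with TCM (log2 FC 1.03 ± 0.10, adjusted P = 7.79e-05). Aldoa, which splits the hexose, had 728 and 731 CPM with LA and 1464 and 1333 CPM with TCM (log2 FC 0.94, adjusted P = 0.000159), and Pgk1, the first step that makes ATP, had 222 and 225 CPM with LA and 479 and 416 CPM with TCM (log2 FC 1.00, adjusted P = 0.000248). In these 3 genes LA lay at the upper end of the controls and TCM above them, and all 3 had called interactions, as for Aldoa (log2 FC 1.23, adjusted P = 0.000321). Ldha, which makes LA from pyruvate, had 689 and 662 CPM with LA and 1139 and 990.4 CPM with TCM (log2 FC 0.66 ± 0.11, adjusted P = 0.00174), with both treatments above the controls at 529 to 629.6 CPM. The uncalled member of highest mean CPM was Pkm, a pyruvate kinase, at 931 and 891 CPM with LA and 1207 and 1073 CPM with TCM (log2 FC 0.32, adjusted P = 0.0625). Pfkfb3, which sets the level of the activator of phosphofructokinase, was the only member with a negative log2 FC (log2 FC −0.45, adjusted P = 0.0878).

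The promoters of Aldoa and Pgk1 are shown with the letters ACGTG or CACGT in capitals. They are the core of the hypoxia response element, the site of the HIF factors, which induce glycolysis genes when oxygen is low.
Aldoa (chr7:126799255-126799404, minus strand): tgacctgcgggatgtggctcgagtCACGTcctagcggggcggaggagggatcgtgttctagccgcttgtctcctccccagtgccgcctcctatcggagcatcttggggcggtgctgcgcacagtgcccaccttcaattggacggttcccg
Pgk1 (chrX:106186950-106187099, plus strand): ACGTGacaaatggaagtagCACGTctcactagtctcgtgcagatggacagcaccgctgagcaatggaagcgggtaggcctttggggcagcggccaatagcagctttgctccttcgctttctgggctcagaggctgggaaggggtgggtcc
The match begins 126 bases before the second of 3 start sites of Aldoa, and 150 and 131 bases before the start of Pgk1. The letters were in a window of 11 of 18 glycolysis genes (61.1%) and of 12 of the 17 hypoxia genes with a window (70.6%), against 21.8% of all genes of the promoter table and 29.8% of tested genes with a window. Of the genes called higher with TCM that have a window, 28.8% held them, no more than of the tested genes. They also lie within the E box CACGTG, which 8.09% of all genes of the promoter table held, so a match does not name a factor.

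Of 21 tested hypoxia genes, 9 were called higher with TCM (5 without LA library 1) and 3 higher with LA. Pdk1, the kinase that turns off pyruvate dehydrogenase, had 44.2 and 46.8 CPM with LA and 97.3 and 107 CPM with TCM (log2 FC 1.17 ± 0.10, adjusted P = 4.86e-05). Bnip3, a receptor of mitophagy, had 27.3 and 29.2 CPM with LA and 79.7 and 54.9 CPM with TCM (log2 FC 1.25), Egln3, an oxygen sensor, had 2.72 and 3.95 CPM with LA and 6.22 and 6.44 CPM with TCM (0.88), and Adm had the largest difference. Ddit4, an inhibitor of mTORC1 that other stresses induce too, had 179 and 173 CPM with LA and 90.7 and 82.8 CPM with TCM (log2 FC −1.02, adjusted P = 8.31e-05), Ndrg1 had 301 and 308 CPM with LA and 168 and 150.2 CPM with TCM (log2 FC −0.94), and Epas1, the gene of HIF-2 alpha, had 6.62 and 11.6 CPM with LA and 2.95 and 3.06 CPM with TCM (log2 FC −1.65); these 3 were the members higher with LA. Well-known targets that were not called included Vegfa (log2 FC 0.25, adjusted P = 0.275, 95% CI −0.07 to 0.57), Slc2a1 (log2 FC 0.30, adjusted P = 0.0767) and Plod2 (log2 FC 0.26, adjusted P = 0.133). The list thus held members of both directions.

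Of 18 tested genes of lactate and pyruvate handling, 6 were called higher with TCM and 2 higher with LA. The transporter genes Slc16a1 and Slc16a3 encode the monocarboxylate carriers MCT1 and MCT4. Slc16a1 had 36.6 and 38.7 CPM with LA and 43.3 and 40.5 CPM with TCM (log2 FC 0.15, adjusted P = 0.358, 95% CI −0.08 to 0.38), and Slc16a3 had 1.42 and 2.54 CPM with LA and 3.37 and 5.46 CPM with TCM (log2 FC 1.08, adjusted P = 0.0443), a low level, with the call lost in 11 of the 20 alternative settings tried, among them DESeq2 and 7 of the 8 fits with a library left out. Bsg, the chaperone of both carriers, had 654 and 681 CPM with LA and 1148 and 899 CPM with TCM (log2 FC 0.62). Pdk4, another kinase of pyruvate dehydrogenase, had 17.0 and 18.4 CPM with LA and 48.9 and 55.6 CPM with TCM (log2 FC 1.55, adjusted P = 5.85e-05), and Pdp1, the opposing phosphatase, had 38.2 and 32.9 CPM with LA and 67.9 and 71.3 CPM with TCM (log2 FC 0.97). The kinases Pdk1 and Pdk4 and the phosphatase Pdp1 were therefore higher with TCM, and other kinases of the enzyme are not given here. Pdha1, a subunit of the enzyme itself, was not called (log2 FC 0.12, adjusted P = 0.415, 95% CI −0.08 to 0.32).

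Txnip, an arrestin that limits glucose uptake and is induced by the sugar-sensing factors Mlx and Mlxip, was higher with LA. It had 384 and 434 CPM with LA and 234 and 222 CPM with TCM (log2 FC −0.84 ± 0.10, adjusted P = 0.000196; interaction log2 FC −1.08, adjusted P = 0.000482), and both treatments were above the controls at 173 to 211 CPM. Arrdc4, its relative under the same factors, had 26.6 and 28.6 CPM with LA and 12.8 and 9.39 CPM with TCM (log2 FC −1.32), while Mlx (log2 FC −0.31) and Mlxip (0.09) were not called. Of 11 tested genes of proton handling, only Car2 was called, at 1.30 and 1.20 CPM with LA and 0.105 and 0.327 CPM with TCM, where both TCM libraries were at or under the floor and the call was lost with DESeq2 and without LA library 2 or TCM library 1. The proton pump subunit Atp6v1a was not called (log2 FC 0.11, adjusted P = 0.435, 95% CI −0.09 to 0.31).

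The ATF4 list holds genes of amino acid supply and stress that the factor ATF4 induces when amino acids or protein folding fail. Of 31 tested, 19 were called higher with LA and none higher with TCM, with a median log2 FC of −0.55, and 29 of 31 log2 FC were negative. Sesn2 (log2 FC −1.15) and Atf5, a related factor, with 435 and 391 CPM with LA and 249 and 218 CPM with TCM (log2 FC −0.82 ± 0.11, adjusted P = 0.000471), had small adjusted P values, as did Nupr1, a stress cofactor, with 29.9 and 31.9 CPM with LA and 16.7 and 15.3 CPM with TCM (log2 FC −0.96 ± 0.12, adjusted P = 0.000436). Trib3, a feedback inhibitor of the pathway, had 117 and 67.1 CPM with LA and 34.0 and 32.3 CPM with TCM (log2 FC −1.46), and Psat1, an enzyme of serine synthesis, had 286 and 245 CPM with LA and 146 and 151 CPM with TCM (−0.84). Atf4 itself was not called (log2 FC −0.35, adjusted P = 0.111), nor was Slc38a2, a transporter of neutral amino acids (log2 FC 0.14, adjusted P = 0.442). LA was no higher than the controls in Atf5 and Nupr1, and TCM was lower still. The summed level was 5861 and 5172 CPM with LA, 4084 and 4225 with TCM, 6207 and 5456 with vehicle and 5494 and 5493 with CCM. The calls became 9 without LA library 1, and 6 genes had a called interaction.

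The promoters of Nupr1 and Slc7a11, the cystine carrier (log2 FC −1.10, adjusted P = 0.00136), are shown with the letters TGATGNAAN or their complement in capitals, the composite element of C/EBP and ATF (CARE) that ATF4 binds.
Nupr1 (chr7:126625471-126625620, minus strand): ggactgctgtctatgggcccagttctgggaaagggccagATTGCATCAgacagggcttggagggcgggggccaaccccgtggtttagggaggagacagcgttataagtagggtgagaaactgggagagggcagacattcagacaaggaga
Slc7a11 (chr3:50443614-50443763, minus strand): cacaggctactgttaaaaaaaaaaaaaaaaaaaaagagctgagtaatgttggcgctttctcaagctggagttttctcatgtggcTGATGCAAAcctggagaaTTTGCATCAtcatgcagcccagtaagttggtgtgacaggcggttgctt
The match begins 111 bases before the start of Nupr1, and the 2 matches begin 66 and 48 bases before that of Slc7a11. The letters were in 9 of the 27 list members with a window (33.3%), against 4.5% of all genes of the promoter table, 2.67% of tested genes with a window and 4.06% of those called higher with LA. Slc7a11 overlaps other annotated genes on both strands.

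Of 18 tested genes of the unfolded protein response, 1 was called in each direction, and both calls, Sdf2l1 (log2 FC 0.47, adjusted P = 0.0365) and Herpud1 (log2 FC −0.45, adjusted P = 0.0393), were lost in several fits; without LA library 1 no member was called. The chaperones Calr (log2 FC −0.09, adjusted P = 0.611, 95% CI −0.31 to 0.14) and Hspa5 (log2 FC −0.08) were not called. Of 27 tested NRF2 antioxidant targets, 6 were called higher with TCM and 1, Slc7a11, higher with LA, and without TCM library 2 the calls were 12. Gstm1, a glutathione transferase, had 108 and 91.4 CPM with LA and 167 and 166 CPM with TCM (log2 FC 0.74, adjusted P = 0.000606), and Tkt, an enzyme of the pentose phosphate pathway, had 197 and 201 CPM with LA and 309 and 283 CPM with TCM (log2 FC 0.58, adjusted P = 0.00143). Hmox1, a usual target, was not called (log2 FC 0.05).

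The calls among ERK output genes were toward LA. These genes are induced by the kinase ERK below growth factor receptors, and many feed back on it. Of 20 tested, 9 were called higher with LA (5 without TCM library 1) and none higher with TCM, with a median log2 FC of −0.62. Dusp6, the phosphatase that turns ERK off, had 27.8 and 23.8 CPM with LA and 9.06 and 10.3 CPM with TCM (log2 FC −1.41 ± 0.15, adjusted P = 0.000116), and 23.3 to 27.2 CPM in the controls. Dusp4, a related phosphatase, had 53.1 and 43.0 CPM with LA and 19.8 and 26.1 CPM with TCM (log2 FC −1.06, adjusted P = 0.000656), and the inhibitor Spry4 had 4.14 and 4.37 CPM with LA and 2.11 and 1.20 CPM with TCM (log2 FC −1.36). Dusp6 was at the control level with LA, and Dusp4 was above it. Egr1, an immediate early factor, had 395 and 194 CPM with LA and 49.7 and 52.9 CPM with TCM (log2 FC −2.51, adjusted P = 0.000484), with replicates far apart in LA and vehicle, and its call was lost without TCM library 1 or 2 and with no filter on low counts. Spred1 (log2 FC −0.05, adjusted P = 0.772, 95% CI −0.29 to 0.19) and Myc (log2 FC 0.05) were not called.

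In the Wnt pathway, 6 of 22 tested genes were called higher with LA and 2 higher with TCM (5 and none without LA library 2, and 1 toward TCM without LA library 1 or TCM library 2). The ligands Wnt5a, with 82.2 and 102 CPM with LA and 45.3 and 56.0 CPM with TCM (log2 FC −0.86, adjusted P = 0.00119), and Wnt2, with 5.56 and 6.91 CPM with LA and 1.69 and 1.42 CPM with TCM (log2 FC −2.02, adjusted P = 0.000484), and the receptor Fzd4, with 192 and 215 CPM with LA and 96.2 and 108 CPM with TCM (log2 FC −0.999 ± 0.10, adjusted P = 9.32e-05), were higher with LA. Wnt2b, another ligand, had the opposite direction at low level, with 1.54 and 1.13 CPM with LA and 3.06 and 3.71 CPM with TCM (log2 FC 1.38). Sfrp2, a secreted inhibitor, passed the adjusted P value but not the fold threshold (log2 FC −0.38, adjusted P = 0.0416).

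Genes of TGF-beta and BMP signaling were called 6 in each direction among 30 tested. The ligand Tgfb3 had 249 and 349 CPM with LA and 116 and 120.1 CPM with TCM (log2 FC −1.35 ± 0.16, adjusted P = 0.000324), and the BMP targets Id1 (log2 FC −0.88) and Id2 (−0.63) were higher with LA. Toward TCM stood Grem1, the ligand subunit Inhba, with 157 and 175 CPM with LA and 281 and 273 CPM with TCM (log2 FC 0.74, adjusted P = 0.000463), and the activin antagonist Fst (log2 FC 0.92). The ligands Tgfb1 (log2 FC −0.34) and Bmp4 (0.06) were not called, nor was Fstl1 (log2 FC −0.22, adjusted P = 0.312). Of 14 tested YAP targets and CCN genes, 6 were called higher with TCM and 1, Ccn4, higher with LA. Crim1, which binds growth factors at the cell surface, had 494 and 486 CPM with LA and 985 and 1247 CPM with TCM (log2 FC 1.19 ± 0.12, adjusted P = 8.81e-05), Amotl2, a feedback inhibitor of YAP, had 388 and 341 CPM with LA and 598 and 718 CPM with TCM (log2 FC 0.85, adjusted P = 0.000497), and F3, the initiator of coagulation called tissue factor, had 86.9 and 83.0 CPM with LA and 179 and 169 CPM with TCM (log2 FC 1.03, adjusted P = 9.17e-05). The classic target Ccn2 was not called (log2 FC −0.17), and Ccn3 did not differ beyond its error (log2 FC 0.01, adjusted P = 0.974, 95% CI −0.25 to 0.27).

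Vasoactive and angiogenic factors had 7 of 22 tested genes called higher with TCM (4 without LA library 2) and 5 higher with LA. Besides Adm and Vegfd, the ligands Edn1, the vasoconstrictor endothelin, with 16.8 and 10.02 CPM with LA and 42.4 and 46.6 CPM with TCM (log2 FC 1.77), and Angpt4, with 1.54 and 1.83 CPM with LA and 11.1 and 11.1 CPM with TCM (log2 FC 2.68), were higher with TCM. Calcrl and Ramp2, which together form the receptor of adrenomedullin, went the other way from their ligand. Calcrl had 45.7 and 59.7 CPM with LA and 15.6 and 18.6 CPM with TCM (log2 FC −1.64) and Ramp2 had 22 and 21.4 CPM with LA and 9.80 and 7.31 CPM with TCM (−1.34). Angpt1, an agonist of the receptor Tek, was at 2.72 and 2.26 CPM with LA and 0.527 and 0.655 CPM with TCM, and Nts had the largest difference toward LA. Vegfa and Nrp1 (log2 FC −0.10, adjusted P = 0.608, 95% CI −0.34 to 0.15) were not called.

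In the IGF axis, 9 of 12 tested genes were called, 6 higher with TCM and 3 higher with LA. Pappa2, a protease that frees IGF from its binding proteins, had 219.6 and 246 CPM with LA and 532 and 899.7 CPM with TCM (log2 FC 1.62 ± 0.19, adjusted P = 0.000262), both far above the controls at 37.0 to 69.2 CPM, so that the treatments differed in degree. The TCM libraries of Pappa2 were far apart, and its interaction was not called (log2 FC 0.83, adjusted P = 0.0905). The binding proteins Igfbp7, with 128 and 166 CPM with LA and 353 and 281 CPM with TCM (log2 FC 1.10, adjusted P = 0.000494), Igfbp2, with 3.79 and 3.81 CPM with LA and 14.1 and 9.50 CPM with TCM (log2 FC 1.64, adjusted P = 0.000702), and Igfbp3 (log2 FC 1.00) were higher with TCM. Igf1, the ligand (log2 FC −0.44), Igfbp4, a substrate of pappalysins (−0.61), and Stc1, an inhibitor of pappalysins (−2.30), were higher with LA. Igf2r was not called (log2 FC −0.28, adjusted P = 0.152).

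Matrix genes were called in both directions. Of 25 tested collagen chains, 6 were called higher with LA and 2 higher with TCM (4 in all without LA library 2, none of them toward TCM, and 5 without TCM library 1, with 3 toward LA). Col5a3, a fibril-regulating chain, had 71.1 and 71.6 CPM with LA and 26.5 and 29.5 CPM with TCM (log2 FC −1.35 ± 0.11, adjusted P = 4.37e-05), and Col20a1 had 5.44 and 3.74 CPM with LA and 9.91 and 9.71 CPM with TCM (log2 FC 1.14, adjusted P = 0.00477), a call lost without LA library 2. Col1a1, the main fibrillar chain, had 16589.9 and 17235 CPM with LA and 14637 and 16846 CPM with TCM (log2 FC −0.10, adjusted P = 0.601, 95% CI −0.37 to 0.16), and Col3a1 (log2 FC −0.20) was not called. In the elastic fiber list, 3 of 18 were called higher with LA and 2 higher with TCM (3 in all without LA library 2, with 1 toward LA; 1 toward TCM without LA library 1 and 4 without TCM library 1). Eln was joined by Fbn1, the main fibrillin (log2 FC −0.79), whereas Lox, the enzyme that crosslinks elastin and collagen, had 2633 and 2698 CPM with LA and 4126 and 4772 CPM with TCM (log2 FC 0.74 ± 0.11, adjusted P = 0.00108). The substrate and its crosslinking enzyme thus differed in opposite directions. Fbln2 was not called (log2 FC 0.25, adjusted P = 0.155).

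Proteoglycans and glycoproteins had 8 of 22 tested genes called higher with LA and 3 higher with TCM (5 in all without LA library 2, 7 without TCM library 1 or 2, with 2 toward LA without LA library 2 or TCM library 1, 4 without TCM library 2, and 5 toward TCM without TCM library 1). Thbs3, with 56.1 and 49.7 CPM with LA and 31.3 and 32.7 CPM with TCM (log2 FC −0.72, adjusted P = 0.00141), Tnc (log2 FC −0.89), Vcan (−1.29) and Postn (−0.71) were higher with LA, and Thbs2, an inhibitor of angiogenesis, with 379 and 463 CPM with LA and 749.7 and 859 CPM with TCM (log2 FC 0.93, adjusted P = 0.000703), and Podn, with 17.6 and 14.5 CPM with LA and 33.4 and 37.8 CPM with TCM (log2 FC 1.16, adjusted P = 0.000369), were higher with TCM. Fn1, the gene of fibronectin, had 15683 and 18139 CPM with LA and 15939.9 and 25843 CPM with TCM (log2 FC 0.30, adjusted P = 0.321), with TCM library 2 above all others. Of 25 tested proteases and inhibitors, 7 were called higher with TCM and 6 higher with LA (2 and 3 without LA library 2). Adamts5, an aggrecanase, had 592 and 574 CPM with LA and 895 and 1066 CPM with TCM (log2 FC 0.75, adjusted P = 0.000895) and Adamts1 had 3719 and 2914 CPM with LA and 6027 and 6855 CPM with TCM (log2 FC 0.96). Mmp15, with 5.44 and 7.76 CPM with LA and 0.738 and 1.31 CPM with TCM (log2 FC −2.71, adjusted P = 0.000372), Mmp14 (log2 FC −0.55) and the inhibitor Serpine2, with 88.6 and 107 CPM with LA and 49.0 and 47.7 CPM with TCM (log2 FC −1.02, adjusted P = 0.000422), were higher with LA. Of 21 laminins, nidogens and integrins, 4 were called in each direction (2 in each without LA library 2, and 2 toward LA without TCM library 1). Lama5 had 6.15 and 4.73 CPM with LA and 26.0 and 39.1 CPM with TCM (log2 FC 2.61 ± 0.26, adjusted P = 9.07e-05), Itga11, a collagen receptor, had 96.9 and 109 CPM with LA and 163 and 216 CPM with TCM (log2 FC 0.88, adjusted P = 0.00304), and Itgb3 had 34.3 and 51.4 CPM with LA and 15.5 and 15.1 CPM with TCM (log2 FC −1.50, adjusted P = 0.000573), while Itgb1 was not called (log2 FC 0.21, adjusted P = 0.245, 95% CI −0.04 to 0.46).

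Contractile genes had 5 of 22 called higher with TCM and 3 higher with LA (3 in all without LA library 1, with 1 toward TCM; 5 without LA library 2, with 1 toward LA; 4 without TCM library 1, with 2 toward TCM). Lmod1, a nucleator of actin in smooth muscle, had 7.22 and 9.95 CPM with LA and 18.5 and 16.9 CPM with TCM (log2 FC 1.02, adjusted P = 0.00346), and Cnn2, a calponin, had 735 and 805 CPM with LA and 1222 and 1031 CPM with TCM (log2 FC 0.55, adjusted P = 0.00796), a call lost without LA library 1. Tagln2 was higher with LA (log2 FC −0.55, adjusted P = 0.00287). Acta2, the smooth muscle actin that marks myofibroblasts, had 4437 and 5361 CPM with LA and 7039.6 and 6038 CPM with TCM and just missed the threshold (log2 FC 0.42, adjusted P = 0.053, 95% CI 0.12 to 0.71).

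Of 16 tested genes of FRC identity, 5 were called higher with TCM and none higher with LA (1 without TCM library 2). Pdpn, the glycoprotein that controls FRC contraction, had 124 and 130.1 CPM with LA and 187 and 185 CPM with TCM (log2 FC 0.55 ± 0.10, adjusted P = 0.00399), with 114 to 139.9 CPM in the controls. Vcam1, an adhesion molecule for lymphocytes, had 141 and 142 CPM with LA and 215 and 199 CPM with TCM (log2 FC 0.55, adjusted P = 0.00326), and Ly6a had 4.02 and 2.96 CPM with LA and 12.5 and 14.8 CPM with TCM (log2 FC 2.01 ± 0.22, adjusted P = 0.000132). In Pdpn and Vcam1 the TCM libraries were above both LA and the controls, with LA at the control level, but their interactions were not called (Pdpn log2 FC 0.43, adjusted P = 0.0893; Vcam1 log2 FC 0.26, adjusted P = 0.288). Pdgfrb passed the adjusted P value with a log2 FC inside the threshold (log2 FC −0.37, adjusted P = 0.0334). Il7, a survival factor of T cells, was low at 1.42 and 1.83 CPM with LA and 1.48 and 1.53 CPM with TCM (log2 FC −0.15, adjusted P = 0.805, 95% CI −0.91 to 0.61), so that a difference of moderate size was not detectable at this depth. Thy1 was below the count filter, with 1 and 4 counts with LA and 8 and 16 with TCM, and was not tested.

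The calls among lysosomal genes were toward TCM. Of 25 tested, 10 were higher with TCM (4 without LA library 1, 6 without TCM library 1) and none higher with LA (1 without TCM library 2), with a median log2 FC of 0.33. The cathepsins Ctsl, with 279 and 314 CPM with LA and 602 and 522 CPM with TCM (log2 FC 0.92 ± 0.11, adjusted P = 0.000251), Ctsd, with 283 and 285 CPM with LA and 533 and 410.3 CPM with TCM (log2 FC 0.73, adjusted P = 0.0024), and Ctsb, with 419.7 and 440.5 CPM with LA and 659 and 607 CPM with TCM (log2 FC 0.56, adjusted P = 0.00263), are proteases of lysosomes. For Ctsd and Ctsb, LA was below and TCM above all controls. The regulators Tfeb (log2 FC 0.08) and Tfe3 (−0.37) were not called. Prosaposin, encoded by Psap, was the uncalled member of highest mean CPM (log2 FC 0.25, adjusted P = 0.122).

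Nuclear-encoded subunits of oxidative phosphorylation had no calls among 34 tested, although 33 of 34 had a positive log2 FC, with a median of 0.22. At an unadjusted P value under 0.05, 10 genes passed with edgeR, and DESeq2 called 2. This result rested on the TCM libraries, whose summed level was 6573 and 5165 CPM against 5173 and 5124 with LA. TCM library 1 stood above all 7 others and TCM library 2 did not, and without TCM library 2 the fit called 19 genes higher with TCM. Atp5b, of ATP synthase, did not differ beyond its error (log2 FC 0.05, adjusted P = 0.784, 95% CI −0.18 to 0.27). Of 7 tested subunits encoded by mitochondrial DNA, 4 were called higher with TCM. The other 6 of the 13 listed, mt-Co2 and mt-Co3 among them, had 0 counts in all LA and TCM libraries. The reason was not tested, so the list covers only a part of these subunits. mt-Co1 had 1934 and 1812 CPM with LA and 3660.0 and 3219.9 CPM with TCM (log2 FC 0.88 ± 0.16, adjusted P = 0.00287), while mt-Nd1 was not called (log2 FC 0.05, adjusted P = 0.873). The summed levels of the list varied within conditions, at 6788 and 5282 CPM with LA and 9382 and 8716 with TCM. They were 9186 and 7745 with CCM and 7445 and 5644 with vehicle, so TCM and CCM overlapped. The list had 1 call without LA library 2 or TCM library 1 and 2 without TCM library 2, and no member had a called interaction.

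In lipid metabolism, 4 of 21 tested genes of fatty acid oxidation and PPAR were called higher with TCM and 1 higher with LA (3 in all without LA library 1 or 2, with 2 toward TCM without LA library 1). Fabp4, a fatty acid carrier and a target of PPAR gamma, had 31.8 and 34.2 CPM with LA and 118 and 79.8 CPM with TCM (log2 FC 1.58 ± 0.16, adjusted P = 0.000105), but CCM exceeded vehicle for it too (log2 FC 1.30, adjusted P = 0.0208), and its interaction was small (log2 FC 0.28, adjusted P = 0.542). Pparg itself had 6.39 and 6.98 CPM with LA and 16.02 and 13.1 CPM with TCM (log2 FC 1.11, adjusted P = 0.00133). Hadha, an enzyme of beta-oxidation, was not called (log2 FC −0.16, adjusted P = 0.216, 95% CI −0.35 to 0.02). Of 28 tested genes of sterol and fatty acid synthesis, 3 were called higher with LA (5 without TCM library 1 or 2) and 1 higher with TCM. Scd2, a desaturase, had 3143 and 3524 CPM with LA and 1986 and 2189 CPM with TCM (log2 FC −0.68, adjusted P = 0.00178). Hmgcs1 was not called (log2 FC −0.12, adjusted P = 0.512). Among 5 tested prostaglandin genes, the receptor Ptger4, with 9.46 and 11.3 CPM with LA and 3.06 and 4.69 CPM with TCM (log2 FC −1.44, adjusted P = 0.00195), was higher with LA and Ptgs1, a cyclooxygenase, with 16.3 and 12.6 CPM with LA and 25.8 and 26.7 CPM with TCM (log2 FC 0.88, adjusted P = 0.00252), was higher with TCM. Ptgs2, the inducible cyclooxygenase, lost its call in 11 of 21 settings.

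Most markers of other cells were at or near 0 counts, with exceptions such as Rab38 and Emcn. In at least 1 LA or TCM library, 3 of 14 melanocyte and 2 of 14 leukocyte markers reached 10 counts. So did 4 of 12 endothelial and 2 of 8 epithelial markers. Of 14 melanocyte markers, 10 had at most 3 counts in each LA and TCM library, and the defining genes Tyr, Dct and Mlana had 0 to 1 count. Tyrp1, an enzyme of pigment synthesis, had 6 and 3 counts with TCM and 0 in the 6 other libraries, while Pmel had 10 to 21 counts in all 8. Mitf had 1.89 and 2.05 CPM with LA and 0.738 and 0.655 CPM with TCM, a call toward LA that was lost in 6 of 20 settings. Of 14 leukocyte markers, 11 had 0 counts in the 4 libraries, and Lyz2 had 8.75 and 10.1 CPM with LA and 22.4 and 13.5 CPM with TCM (log2 FC 0.92, adjusted P = 0.0188), a call lost without LA library 1 or 2 or TCM library 1. Of 12 endothelial markers, Tek had 2.01 and 4.59 CPM with LA and 0.948 and 0.655 CPM with TCM (log2 FC −2.11, adjusted P = 0.0154), a call lost without LA library 2, and Emcn, a sialomucin of endothelium, was not called at 49.7 and 62.4 CPM with LA and 49.0 and 46.0 CPM with TCM (log2 FC −0.25, adjusted P = 0.221). Cdh1, an epithelial cadherin, had 1.66 and 2.19 CPM with LA and 0.632 and 0.873 CPM with TCM (log2 FC −1.38, adjusted P = 0.035), a call lost in 8 of 20 settings. The summed CPM of all listed markers in the count table, tested or not, was 34.0 and 36.3 with LA and 29.0 and 21.6 with TCM for melanocytes. It was 11.0 and 11.6 and 24.4 and 14.7 for leukocytes, 65.2 and 88.1 and 62.6 and 60.4 for endothelium, and 3.43 and 4.23 and 1.48 and 1.96 for epithelium. The part of other cells in the differences above was not tested.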

How the data were processed

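Poly(A) RNA of the FRC line was sequenced as directional libraries on a NextSeq instrument, with 2 libraries for each of 4 conditions, grouped by their labels. Per the labels and the study's methods, the authors aligned reads to GRCm38 with STAR 2.7.0a, assigned them to genes with featureCounts of Subread 2.0.1 and tested them with DESeq2 1.32.0; the deposited values used here are raw read counts per gene. Whether the counting used strand is not given in the sources used here, so overlapping genes are uncertain. A second deposited table, described as normalized, held the raw counts of the 12137 tested genes (100% of values equal) and was not used further.

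Genes reaching 10 counts in 3 or more of the 8 libraries were fitted with edgeR 4.0.16 in R 4.3.3 (TMM factors, robust quasi-likelihood test, 1 mean per condition over all 8 libraries), with Benjamini-Hochberg adjustment over all 12137 genes. Each standard error was taken from the log2 FC and its F statistic (their quotient with the root of F). The fit was tested on simulated data. Intervals of log2 FC are at 95%, and the floor of 3 counts covers counting error only. The alternatives were DESeq2 1.42.0 and its size factors, other filters and fold thresholds, edgeR's glmTreat, a replicate block, totals without TMM factors, the libraries compared alone and leaving out each library.

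The comparison and the gene lists were chosen with earlier results of these data known. Genes were named by a rule: the 5 calls of smallest adjusted P value and the 5 of largest log2 FC (with a mean of 5 CPM) in each direction, the 5 of smallest adjusted P value on opposite sides of the controls, the 3 calls of smallest adjusted P value and the most abundant uncalled member of each list, the transcripts the study measured by PCR, and Pappa2. Other list members were named after their values were seen, and a few genes that the rule names are not reported here. Positions are from GENCODE M21 (11964 genes matched by symbol) and promoter windows from RefSeq on GRCm38.p6 (9418 genes, 77.6%). The printed promoters are those of the called members of smallest P value that held the letters in the 150 bases shown. Each is given at its first start site with a match.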

Additional observations from a re-analysis of the deposited data

How the results depend on the processing

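Between TCM and LA, 1126 genes were called beyond a log2 FC of 0.68, 623 beyond 1 and 742 with glmTreat against 0.39. The count was 1960 with DESeq2 size factors, 1665 with DESeq2 (1619 shared with edgeR), 2311 with no filter, 1815 with at least 10 counts in every library, 1375 with only the libraries compared and 2184 without TMM factors, and it ran from 1014 to 2896 with a library left out. Between CCM and vehicle, 584 genes were called with no filter, 679 with only the libraries compared, 84 beyond 0.68, 19 beyond 1 and 2 with glmTreat, and from 0 to 497 with a library left out. For the interaction the counts were 634 beyond 1, 625 with glmTreat and 629 to 2540 with a library left out. With the replicate block the 3 counts were 2007, 193 and 1316; the labels do not say what a number marks, and the deviations of same-numbered libraries had r of 0.11 to 0.35 among vehicle, LA and TCM and of −0.24 to −0.04 between CCM and each of them, so that not all pairs deviated together. With the block and only the libraries compared, the counts were 2189 between TCM and LA and 778 between CCM and vehicle. With the CCM numbers crossed in the block, a fit chosen after seeing the data, the counts were 2258, 457 and 1938. The cause of these changes was not tested. Over the genes that the naming rule picked, no log2 FC of a called gene reversed in these fits, 158 values of a gene under a setting lost the call and 35 gained it; list members named outside the rule were not refitted one by one. Without TMM factors the medians of the elastic fiber, contractile, FRC identity, fatty acid oxidation and prostaglandin lists changed sign, so no direction is given for them as lists. Genes below the filter, such as Thy1, cannot be compared at this depth.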
